A study of Bos taurus with 6 samples.

Results

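The 50 genes described here are the splicing factor genes whose symbols start with HNRNP, SRSF, SF3A, SF3B or SNRP, with SNRPN left out, among the 19163 genes of a bovine count table. They comprised 19 HNRNP, 11 SRSF, 3 SF3A, 6 SF3B and 11 SNRP genes. The rule itself names symbols only and uses no measured value, although it was written with earlier results of these data known. F7 is a single line of bovine embryonic stem cells (bESCs) that was derived from an embryo fertilised in vitro. It was kept for 15 passages on mouse embryonic fibroblasts of the C57 strain, which serve as a feeder layer, in a customised mTeSR1 medium with rhFGF and IWR1. In MC-F7 the fibroblasts had been treated with mitomycin C, which leaves them alive but stops their division, and the medium was changed every day. In MT-F7 the fibroblasts had been fixed with methanol, which kills them, and the medium was changed every other day, so that feeder and medium schedule cannot be told apart. Before RNA extraction, cells of both groups were left to settle on gelatin and the floating cells were taken, a step that removes fibroblasts because they attach faster. RNA of 3 libraries in each group was sequenced. The study's methods speak of technical replicates in general and do not say that the libraries came from separate cultures, so p values measure only the spread between these libraries.

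Introns are removed from pre-mRNA by the spliceosome, which is assembled from small nuclear ribonucleoproteins (snRNPs) on each intron. The U1, U2, U4 and U5 snRNPs are each built on a ring of Sm proteins, and the U1 snRNP marks the start of the intron while the U2 snRNP, with its SF3A and SF3B parts, marks the branch point near its end. SR proteins bind exons and mostly promote the use of nearby splice sites, whereas heterogeneous nuclear ribonucleoproteins (hnRNPs) coat pre-mRNA and often oppose it, and the balance between the families sets which exons are kept. Stem cells use these proteins at high levels, and many of them are known to control their own level through alternative splicing. Read counts per gene measure the summed transcripts and say nothing on which exons were used.

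The libraries held 21958386 to 24933430 gene counts. Genes of the mitochondrial genome took 16.3% to 28.3% of them, most in MC-F7 replicate 3 and MT-F7 replicate 3. Counts per 1000000 (CPM) and fold changes below are on the scale of edgeR's TMM normalisation. Lists of cell type markers differed between the groups. Of 10 pluripotent cell markers listed, SOX2, LIN28B and TDGF1 were not found by symbol in the count table. Of the 7 in the table, 6 were lower in MT-F7 (POU5F1, NANOG, LIN28A, DPPA4, ZFP42 and EPCAM). SALL4 had a log2 fold change of 0.33 and was not called by edgeR. The summed level of the 7 was 1053 to 1756 CPM in MC-F7 and 629 to 702 CPM in MT-F7. Most of it was POU5F1, with 825 to 1456 CPM and 486 to 557 CPM. Of 7 neural ectoderm markers tested, 5 were higher (PAX6, SIX3, LHX2, RAX and MAP2). NES and TUBB3 were not called by edgeR, with log2 fold changes of 0.40 and -0.22. All 7 together summed to 601 to 693 CPM in MC-F7 and 1262 to 1379 CPM in MT-F7. NES alone had means of 312 and 412 CPM, and TUBB3 of 202 and 174 CPM. Of 13 fibroblast markers tested, COL3A1, POSTN, PDGFRB and ACTA2 were higher, TWIST2 was lower and the others were not called by edgeR. The sums were 295 to 390 and 605 to 766 CPM, where ACTA2 alone had means of 85.3 and 309 CPM. None of these markers was at 0 in all libraries. For 11 proliferation markers the sums were 3374 to 3934 CPM in MC-F7 and 3402 to 3733 CPM in MT-F7, and none was called by edgeR or DESeq2, although 3 had an unadjusted p under 0.05. In such bulk samples, fewer cells of a type and less RNA per cell cannot be told apart, and the part of these cells in the values below was not tested. The study reports that a larger share of reads mapped to the bovine genome in MT-F7 than in MC-F7. It proposes that fixed feeders left fewer feeder cells in the samples. The part of mouse reads in the values below was not tested. For higher RNA of matrix and growth factor genes in MT-F7, the study proposes that some of the stem cells had turned into feeder-like cells. That was not tested here either.

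All 50 splicing factor genes passed the filter on low counts, with between 176 counts (SRSF12 in MT-F7 replicate 3) and 85824 counts (HNRNPA1 in MT-F7 replicate 2) in a library. The groups were compared with edgeR's quasi-likelihood test across 13001 genes, with Benjamini-Hochberg adjustment over all of them, and a gene with an adjusted p under 0.05 is said to be called. Of the 50 genes, 6 were called. HNRNPLL, HNRNPH2 and SRSF6 were higher in MT-F7, and SRSF12, SF3A2 and SNRPA were lower. This is 12% of the 50 genes, beside a background of 23.2% of all tested genes (11.9% higher and 11.3% lower). Many of the tested genes had few reads, and among the 7068 genes with a mean level at least that of the lowest splicing factor gene, a limit that was set with the values in view, 22.1% were called (11.3% higher and 10.8% lower). The CPM of the groups did not overlap in 17 of the 50 genes, 7 of them higher and 10 lower in MT-F7, where the background is 19.9% higher and 20.1% lower, or 40% in either direction.

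**Figure D1:**
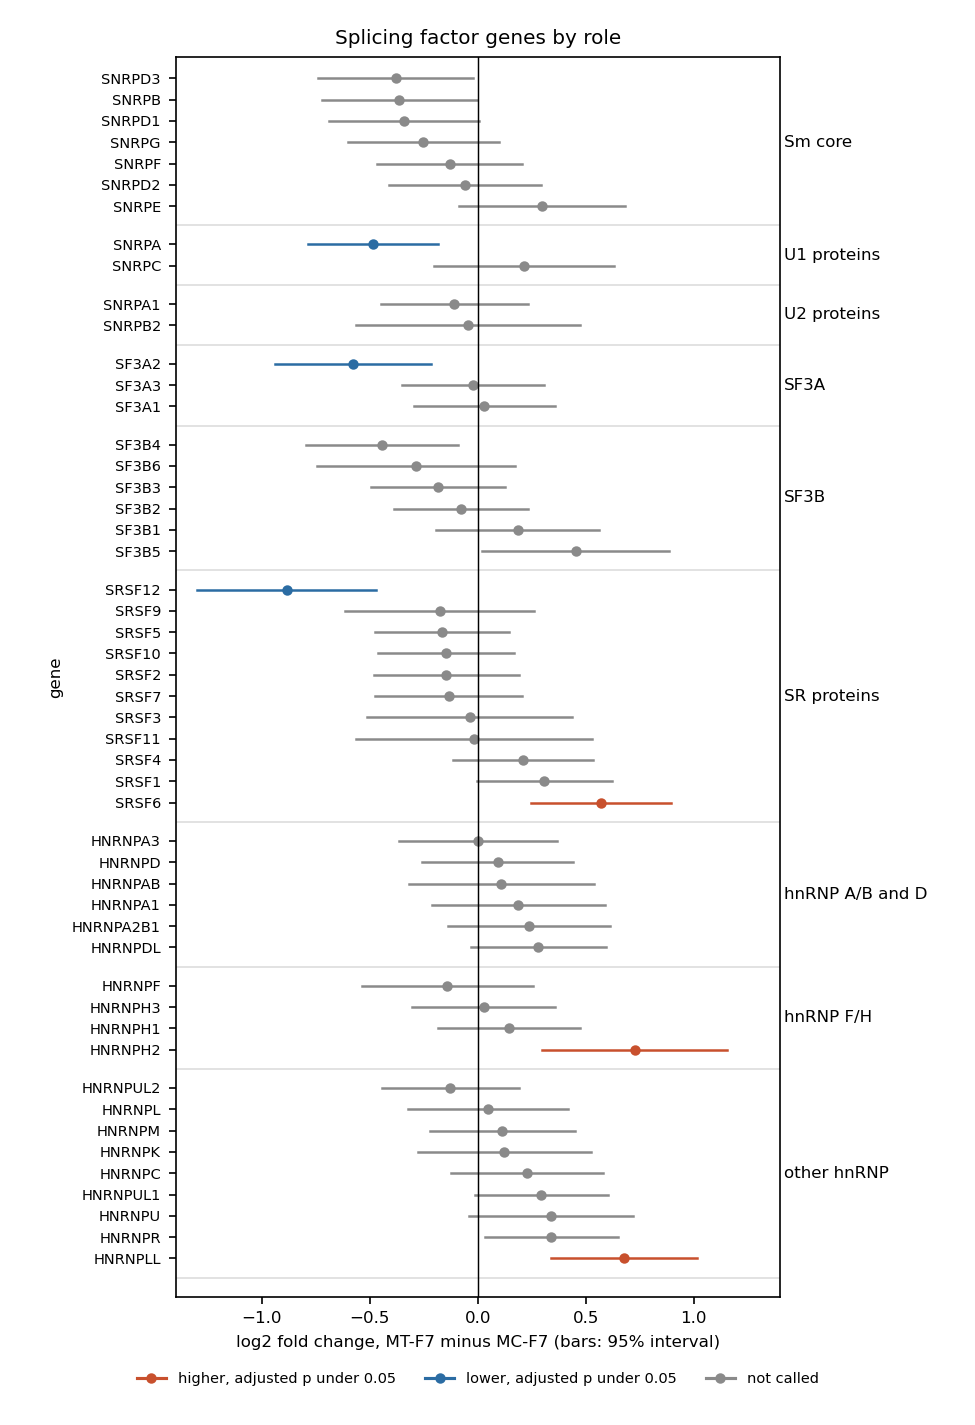
Log2 fold change of each of the 50 splicing factor genes (MT-F7 minus MC-F7, x axis), grouped by role on the y axis. Points are the fitted values and bars the 95% intervals over 3 libraries a group. Orange marks the 3 genes called higher, blue the 3 called lower and grey the 44 not called, whose values lie between -0.44 and 0.45.

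The changes were small. The median log2 fold change of the 50 genes was -0.01, beside -0.0026 over all tested genes, and 25 genes had a value above 0 and 25 below. The median absolute log2 fold change was 0.18, beside 0.34 over all tested genes and 0.26 over the 7068 genes of at least the same level. No splicing factor gene passed an absolute log2 fold change of 1, which 13% of all tested genes did with an unadjusted p under 0.05 (6.99% higher and 6.04% lower). The largest fold was that of SRSF12, 1.85. For the 44 genes not called, the 95% interval of the log2 fold change lay within -1 to 1 in all, and within -0.5 to 0.5 in 18. The 50 genes together took 1.95% ± 0.206 of all counts in MC-F7, against 2.02% ± 0.225 for MT-F7 (SD, n = 3), and the groups overlapped.

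The split of the calls was different when limma was run on the deposited TPM values, a fit that changes scale, test and gene set at once. On log2(TPM + 1) of these values, which are counts per gene length, limma called 5 of the 50 genes higher (HNRNPH2, HNRNPLL, HNRNPR, HNRNPUL1 and SRSF6) and 1 lower (SRSF12), beside a background of 12.2% higher and 6.25% lower (18.4% in all), and 34 genes had a log2 fold change above 0. These columns are not scaled to a common sum and keep the larger size of the MT-F7 libraries. After rescaling to 1000000 per library, an alternative added with the values in view, 3 genes were called higher and 1 lower, beside 11.2% and 7.3% (18.5% in all), and 31 were above 0. Without MC-F7 replicate 2, MT-F7 replicate 1 or MT-F7 replicate 2 the number called higher was 1 (HNRNPLL), and without MC-F7 replicate 1, MT-F7 replicate 1 or MT-F7 replicate 2 the number called lower was 1 (SRSF12). Fewer of all tested genes were called in these fits as well, 7.73%, 8.76% and 9.21% higher and 9.89%, 7.51% and 7.67% lower, in the same order. HNRNPLL and SRSF12 were called under every alternative normalisation, filter and test and without any single library.

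**Figure D2:**
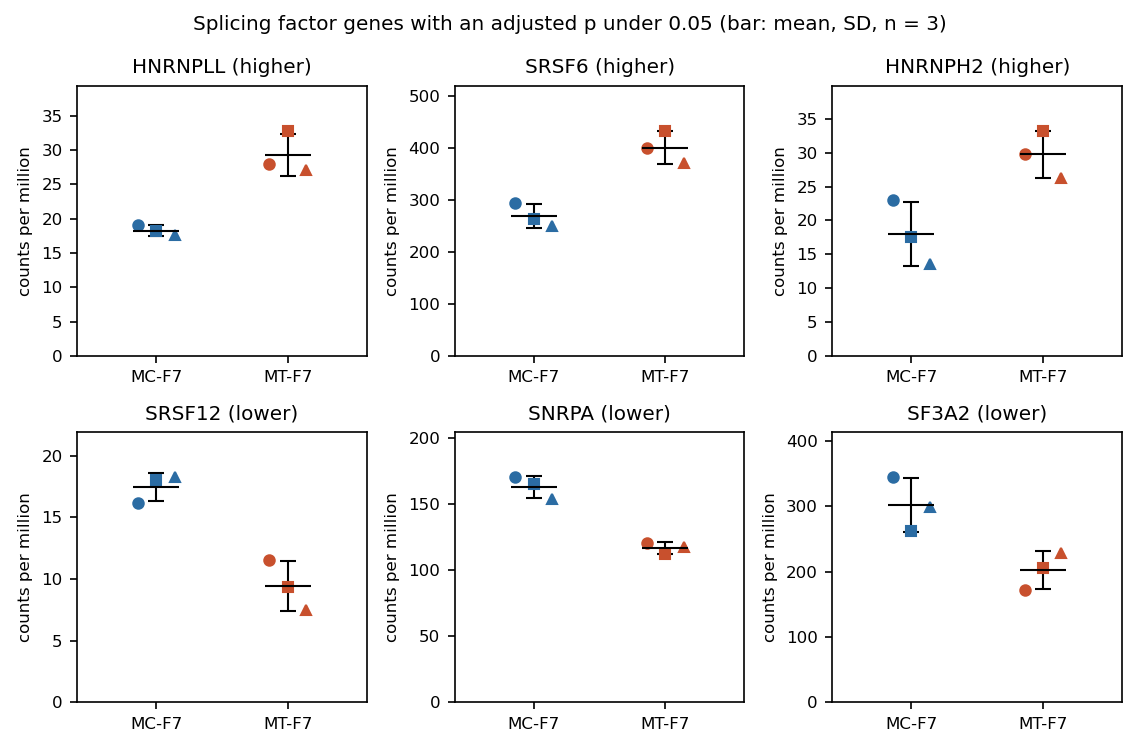
CPM (y axis, from 0) of the 6 splicing factor genes with an adjusted p under 0.05 in each library of MC-F7 (blue) and MT-F7 (orange). Circles, squares and triangles are replicates 1, 2 and 3, and the black bars give mean and SD. In each panel all 3 libraries of a group lie on the same side of the other group.

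Among the proteins of the snRNPs, the Sm core was mostly lower in MT-F7 without passing the test. The Sm proteins form the ring that is loaded onto the small nuclear RNAs in the cytoplasm. Of the 7 Sm genes (SNRPB, SNRPD1, SNRPD2, SNRPD3, SNRPE, SNRPF and SNRPG), 6 had a log2 fold change below 0, and the median was -0.25. SNRPB, SNRPD1 and SNRPD3 were lower in all MT-F7 libraries than in any MC-F7 library, as were 20.1% of all tested genes. No Sm gene was called by edgeR's quasi-likelihood test or by the Wald test of DESeq2, which called 26.1% of all tested genes. An unadjusted p under 0.05 was found for 2 of the 7, beside 35.8% of all tested genes. SNRPD3 had the lowest p, with 1140, 894 and 995 CPM in MC-F7 and 686, 830 and 810 CPM in MT-F7. Its MC-F7 libraries were all higher, and the log2 fold change was -0.38 (SE 0.166, adjusted p = 0.118). SNRPE went the other way, with a log2 fold change of 0.30 (SE 0.178) and an adjusted p of 0.258. Under every alternative 5 or 6 of the 7 genes stayed below 0, with medians between -0.34 and -0.11.

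SNRPA encodes the U1 snRNP protein that binds a stem-loop of the U1 small nuclear RNA. Its level was 170, 165 and 154 CPM in MC-F7 and 120, 112 and 118 CPM in MT-F7. The libraries of each group lay close together and far from the other group, and SNRPA fell by 0.48 on the log2 scale (SE 0.139, adjusted p = 0.0235). The call was lost without MC-F7 replicate 1 (adjusted p = 0.0619) or 2 (0.11), without MT-F7 replicate 1 (0.0705) or 2 (0.103), and on the TPM scale. In the RefSeq annotation SNRPA overlaps ACTMAP, whose level was 26.8 ± 1.30 CPM (SD, n = 3) in MC-F7 and 21.2 ± 5.85 CPM in MT-F7 (log2 fold change -0.34, adjusted p = 0.231). The strand setting of the counting is not given in the sources used here, and without strand the reads of overlapping genes cannot be told apart. SNRPC, which encodes the protein that steadies U1 on the 5′ splice site, had a log2 fold change of 0.21 (SE 0.193, adjusted p = 0.465). The U2 proteins differed little. SNRPA1, which encodes a leucine-rich protein of the U2 snRNP, was at 117, 109 and 99.7 CPM in MC-F7 and 111, 107 and 83.2 CPM in MT-F7, and the groups overlapped (log2 fold change -0.11, adjusted p = 0.665). SNRPB2, which encodes its RNA-binding partner, had a log2 fold change of -0.05 (SE 0.240, adjusted p = 0.912). The U2 genes had no unadjusted p under 0.05 and no call by DESeq2.

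SF3A and SF3B join the U2 snRNP and help it to settle on the branch point. SF3A2 was at 344, 262 and 298 CPM in MC-F7 and at 171, 206 and 229 CPM in MT-F7. The libraries varied within each group, but the lowest of MC-F7 was still above the highest of MT-F7, and SF3A2 fell by 0.58 on the log2 scale (SE 0.167, adjusted p = 0.0242). The call was lost without MC-F7 replicate 1 (adjusted p = 0.0801), MT-F7 replicate 1 (0.12) or MT-F7 replicate 2 (0.0717), and on the TPM scale. The other SF3A genes differed little, with log2 fold changes of 0.03 (SF3A1, SE 0.150) and -0.02 (SF3A3, SE 0.151). Per gene length, SF3A2 was 1.27 ± 0.105 times as high as SF3A3 (SD, n = 3) in MC-F7 and 0.872 ± 0.189 times in MT-F7, without overlap, and in MT-F7 the ratio was below 1 in replicates 1 and 2 and above it in replicate 3. The ratio to SF3A1 was 2.57 ± 0.402 in MC-F7 and 1.70 ± 0.393 in MT-F7, with overlap. These pairs and those below were chosen after their values had been seen and were not tested.

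None of the 6 SF3B genes was called by edgeR, while DESeq2 called SF3B4 and 2 had an unadjusted p under 0.05. SF3B4, whose protein holds pre-mRNA next to the branch point, was at 402, 324 and 309 CPM in MC-F7 and 242, 286 and 233 CPM in MT-F7. The groups did not overlap, but the log2 fold change of -0.44 (SE 0.162) had an adjusted p of 0.0661 by edgeR's quasi-likelihood test. It passed with an adjusted p of 0.0361 by DESeq2 and of 0.0388 without MC-F7 replicate 3. SF3B5, a small subunit that packs into the core of SF3B, had the highest log2 fold change of the genes not called, 0.45 (SE 0.200, adjusted p = 0.121). The ratio of SF3B4 to SF3B5 per gene length was 2.002 ± 0.332 in MC-F7 and 1.06 ± 0.114 in MT-F7, without overlap. SF3B1, the scaffold that closes around the branch helix, had a log2 fold change of 0.19 (SE 0.174). SF3B2, SF3B3 and SF3B6 lay between -0.28 and -0.08.

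SR proteins held a call in each direction. SRSF12, a little expressed SR protein related to SRSF10, was at 16.2, 18.0 and 18.2 CPM in MC-F7 and at 11.5, 9.39 and 7.47 CPM in MT-F7. All MC-F7 libraries were higher, and SRSF12 fell by 0.89 on the log2 scale (SE 0.191, adjusted p = 0.0051). The level per gene length was 0.460 ± 0.0352 of that of SRSF10 in MC-F7 and 0.274 ± 0.0365 in MT-F7, again without overlap. SRSF6 (SRp55), which binds exonic enhancers, was at 295, 263 and 249 CPM in MC-F7 and 399, 432 and 370 CPM in MT-F7. It was higher in every MT-F7 library and rose by 0.57 on the log2 scale (SE 0.150, adjusted p = 0.0146). Without MC-F7 replicate 2 (adjusted p = 0.0865), MT-F7 replicate 1 (0.0573) or MT-F7 replicate 2 (0.0716) it was not called. Its ratio to SRSF5, an SR protein of the same domain build, was 0.374 ± 0.0222 in MC-F7 and 0.625 ± 0.0192 in MT-F7 per gene length, and the groups were far apart. Its ratio to SRSF4, which has this build too, was 0.893 ± 0.153 and 1.14 ± 0.165, with overlap.

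The other 9 SR genes had log2 fold changes from -0.18 (SRSF9) to 0.31 (SRSF1) and were not called. SRSF1, the SR protein studied most, was higher in every MT-F7 library (377, 378 and 359 CPM against 455, 488 and 435 CPM), with a log2 fold change of 0.31 (SE 0.144) and an adjusted p of 0.145. SRSF5 and SRSF10 were lower in every MT-F7 library, with log2 fold changes of -0.17 and -0.15. SRSF11 and SRSF3 had the largest SEs of the SR genes, 0.252 and 0.220. SRSF11 was at 53.5, 86.6 and 125 CPM in MC-F7 and 88.1, 71.2 and 102 CPM in MT-F7, so that a single group spanned the other, and its log2 fold change was -0.02 with a 95% interval of -0.57 to 0.53.

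Of the 19 hnRNP genes, 17 had a log2 fold change above 0, and the median was 0.14. In 5 genes every MT-F7 library was higher than any MC-F7 library and in none was every one lower, beside 19.9% and 20.1% of all tested genes. By edgeR's quasi-likelihood test 2 were called, both higher, which is 10.5% beside the background of 23.2%. No test set the group against other genes, and the number above 0 varied with the alternative. Between 11 and 18 genes were above 0, with medians between 0.08 and 0.28, and the lowest number was found without MC-F7 replicate 3. MC-F7 replicate 3 was the lowest MC-F7 library for most hnRNP genes, HNRNPA1 and HNRNPU among them.

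The A/B and D types shuttle between nucleus and cytoplasm and include HNRNPA1 and HNRNPA2B1, the hnRNP genes of highest level here. In this group 6 of 6 log2 fold changes were above 0, from 0.0019 (HNRNPA3) to 0.28 (HNRNPDL). None was called by edgeR or DESeq2, and none had an unadjusted p under 0.05. HNRNPDL, which is close to HNRNPD in sequence, was at 222, 233 and 260 CPM in MC-F7 and 285, 306 and 278 CPM in MT-F7, without overlap (SE 0.145, adjusted p = 0.186). HNRNPA1 and HNRNPA2B1, which often repress exons, had log2 fold changes of 0.19 (SE 0.186) and 0.24 (SE 0.173), and their groups overlapped.

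In the F/H type, whose members bind runs of G, HNRNPH2 was at 23.0, 17.5 and 13.6 CPM in MC-F7 and 29.8, 33.2 and 26.3 CPM in MT-F7. The highest MC-F7 library stayed below the lowest MT-F7 library, and HNRNPH2 rose by 0.73 on the log2 scale (SE 0.199, adjusted p = 0.0185), the highest value of the 50 genes. It lost the call without MC-F7 replicate 2 (adjusted p = 0.0778), MT-F7 replicate 1 (0.0555) or MT-F7 replicate 2 (0.0715). HNRNPH1, its near-identical and far more abundant relative, had 693, 582 and 588 CPM in MC-F7 and 691, 666 and 703 CPM in MT-F7, with overlap and a log2 fold change of 0.14 (SE 0.153, adjusted p = 0.536). Per gene length, HNRNPH2 was at 0.0304 ± 0.00546 of HNRNPH1 in MC-F7 and 0.0460 ± 0.00658 in MT-F7, without overlap. Reads that match both genes may have been split or dropped, since the handling of such reads is not given in the sources used here, and the value of HNRNPH2 is uncertain to that extent. HNRNPF and HNRNPH3 had log2 fold changes of -0.14 and 0.03.

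HNRNPLL is the lesser relative of HNRNPL and is known for switching exons in lymphocytes. It was at 19.1, 18.2 and 17.6 CPM in MC-F7 and 28.0, 32.8 and 27.0 CPM in MT-F7. The MC-F7 libraries were nearly equal and all below MT-F7, and HNRNPLL rose by 0.68 on the log2 scale (SE 0.156, adjusted p = 0.0072). It too overlaps another gene in the RefSeq annotation, so the limit given for SNRPA holds here as well. The same limit holds for HNRNPA1, HNRNPA3, HNRNPDL, HNRNPK, HNRNPUL1, SF3B3, SF3B6, SNRPD1, SNRPF and SRSF2, which also overlap annotated genes. HNRNPL differed little, with a log2 fold change of 0.05 (SE 0.170, adjusted p = 0.872), and the ratio of HNRNPLL to it per gene length was 0.0369 ± 0.00465 in MC-F7 and 0.0570 ± 0.00761 in MT-F7, without overlap. The remaining genes of this group (HNRNPC, HNRNPK, HNRNPM, HNRNPR, HNRNPU, HNRNPUL1 and HNRNPUL2) were not called. Of these, HNRNPR was at 138, 126 and 124 CPM in MC-F7 and 171, 168 and 152 CPM in MT-F7, and its log2 fold change of 0.34 (SE 0.141) had an adjusted p of 0.101. HNRNPUL1, a relative of the nuclear scaffold protein HNRNPU, was also higher in every MT-F7 library, with a log2 fold change of 0.29 (SE 0.143, adjusted p = 0.159). HNRNPUL2 was the only one below 0 (log2 fold change -0.13, SE 0.147).

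**Figure D3:**
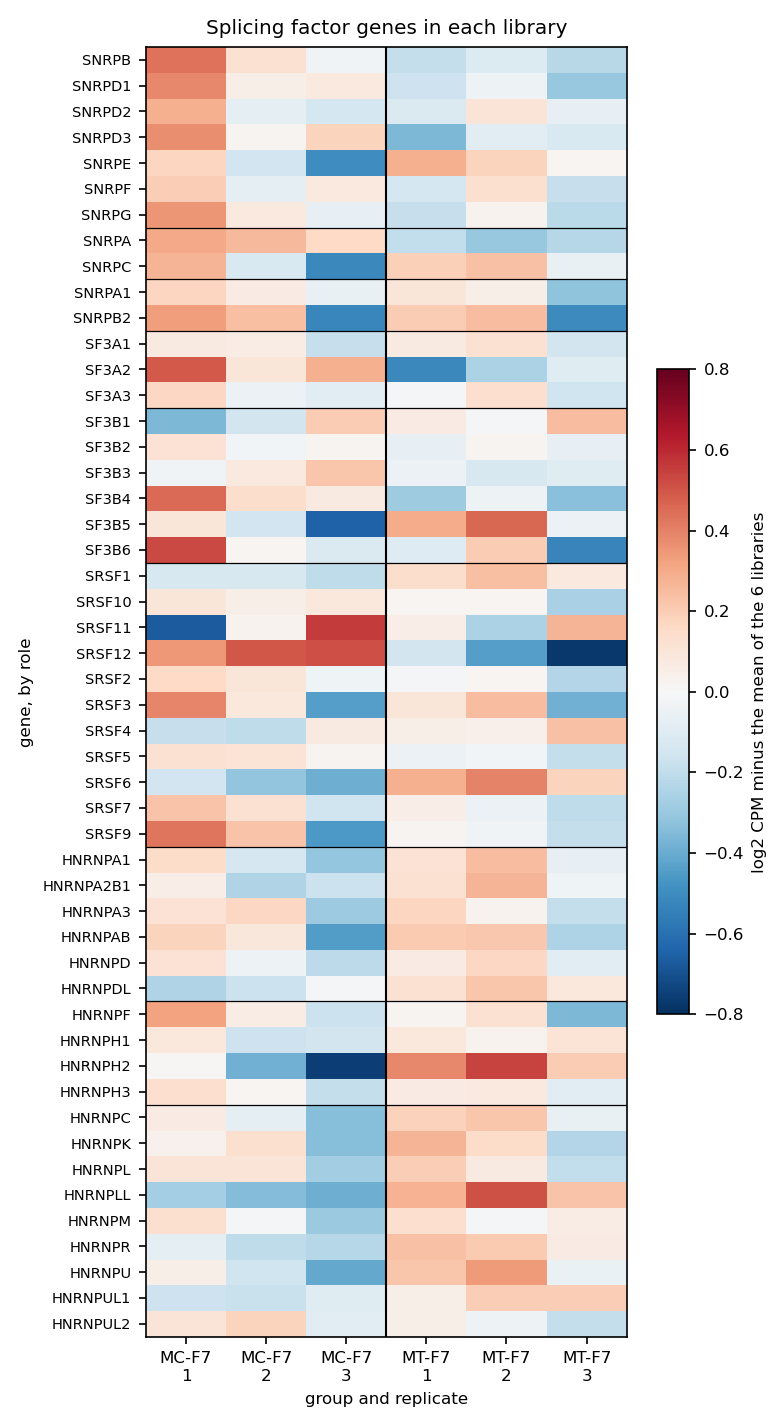
Log2 CPM of the 50 splicing factor genes (rows, grouped by role) in the 6 libraries (columns), each minus the mean of its row. Red is above and blue below the mean of the gene, and the scale ends at -0.8 and 0.8. The columns of replicate 3 are blue for most genes in both groups.

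Much of the spread within the groups came with replicate 3. In MC-F7, 35 of the 50 genes had their lowest CPM in replicate 3, and in MT-F7 39 did. Both held for 32 genes (64%), among them HNRNPA1, SRSF3, SNRPB2 and SF3B5, beside 25.8% of all tested genes. For SNRPB2 the levels were 86.3, 80.8 and 47.6 CPM in MC-F7 and 78.6, 81.3 and 48.1 CPM in MT-F7. Replicate 3 also had the highest mitochondrial share in both groups, and the part of that share in these values was not tested. Genes such as SF3B1 (292, 338 and 432 CPM, then 393, 370 and 445 CPM) and SRSF4 (203, 200 and 242 CPM, then 238, 237 and 271 CPM) went the other way and were highest in replicate 3 of both groups. With replicate 3 of both groups left out, a choice made with the values in view, 7 of the 50 genes were called higher (HNRNPDL, HNRNPH2, HNRNPLL, HNRNPR, SF3B5, SRSF1 and SRSF6) and 5 lower (SF3A2, SF3B4, SNRPA, SNRPB and SRSF12) by edgeR's quasi-likelihood test, beside 32.4% of the 13073 genes tested in that fit (16.8% higher and 15.7% lower). The 6 genes called with all libraries were among them.

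**Figure D4:**
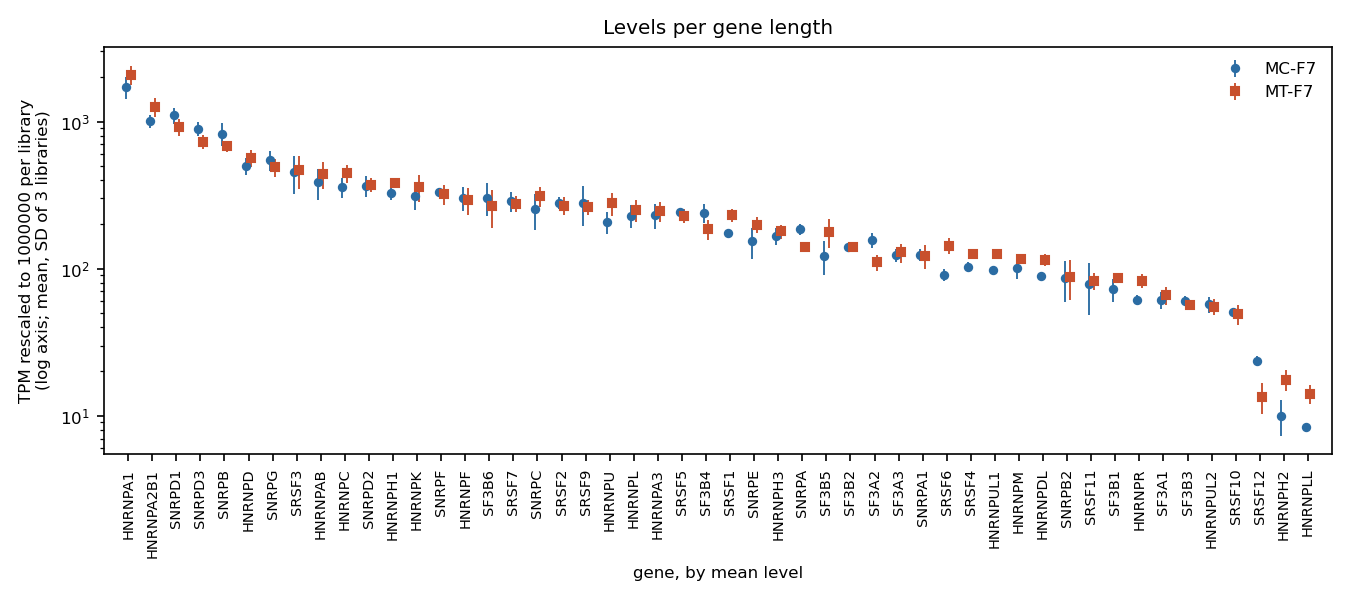
Level per gene length of the 50 splicing factor genes (y axis, log scale, TPM rescaled to 1000000 per library), ordered by their mean over the groups. Blue circles are MC-F7 and orange squares MT-F7, with bars for the SD of 3 libraries. HNRNPA1 is the highest in both groups, and SRSF12, HNRNPH2 and HNRNPLL stand below the rest.

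Of the 6 called genes, 3 had the lowest levels of the 50. Per gene length, on TPM values rescaled to 1000000 per library, HNRNPA1 was the highest of the 50 genes with 1729 ± 294 (SD, n = 3) in MC-F7 and 2089 ± 317 in MT-F7. In MC-F7 its level was 8.77 ± 0.538 times that of the median splicing factor gene. HNRNPA2B1 (1006 ± 102 and 1260 ± 187) and SNRPD1 (1100 ± 142 and 922 ± 125) came next, in an order that was not the same in the groups, and their values in MC-F7 did not differ beyond their spread. At the other end stood SRSF12 (23.5 ± 1.84 and 13.5 ± 3.23), HNRNPH2 (10.03 ± 2.70 and 17.6 ± 2.81) and HNRNPLL (8.32 ± 0.518 and 14.1 ± 2.08). These 3 genes were all called, and the next above them, SRSF10, was at 51.0 ± 1.31 and 49.0 ± 7.29. The other called genes, SNRPA, SF3A2 and SRSF6, had levels in the middle, between 90.7 and 185.

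HNRNPA1 alone made up 43.7% ± 1.31 of the summed level of the A/B and D group in MC-F7 and 44.3% ± 0.417 in MT-F7. In the F/H group, HNRNPH1 made up 40.7% ± 2.19 and 44.1% ± 3.88, and HNRNPH2 only 1.23% ± 0.170 and 2.01% ± 0.127. Among the SR genes SRSF6 took 4.41% ± 0.228 in MC-F7 and 6.67% ± 0.239 in MT-F7, and SRSF12 1.15% ± 0.202 and 0.624% ± 0.0981. The changes in SRSF12, HNRNPH2 and HNRNPLL thus concerned a small share of the transcripts of their families, whereas SF3A2 held 45.8% ± 2.75 of the SF3A level in MC-F7 and 36.3% ± 4.97 in MT-F7.

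**Figure D5:**
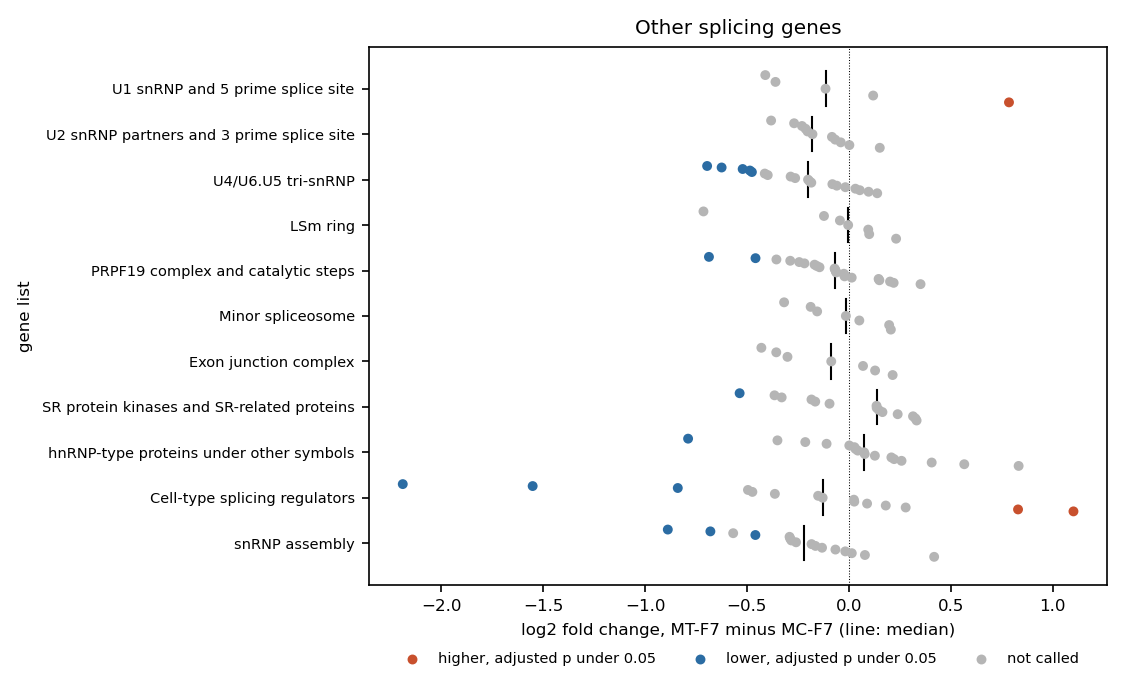
Log2 fold change (MT-F7 minus MC-F7, x axis) of 140 tested splicing genes outside the 50, by list on the y axis. Orange points are the 3 genes called higher, blue the 15 called lower and grey the rest, and vertical lines give the medians of the lists. ESRP1 is the lowest at -2.19.

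To set the 50 genes beside the rest of the splicing machinery, 151 splicing genes under other symbols were listed, of which 144 were in the table and 140 were tested. Of these, 18 were called (12.9%), 3 higher and 15 lower in MT-F7, beside the background of 11.9% and 11.3%. The median log2 fold change was -0.08, with 54 genes above 0 and 86 below. The groups did not overlap in 6 higher and 34 lower genes, beside 19.9% and 20.1% of all tested genes. On log2(TPM + 1) of the deposited values, limma called 5 higher and 7 lower, beside 12.2% and 6.25%. The count lower was 9 without MC-F7 replicate 2 or MT-F7 replicate 1 and 10 without MT-F7 replicate 2. Of all tested genes, 6.79%, 7.51% and 7.67% were lower in these fits, in the same order. The count higher was 6 without MT-F7 replicate 3, beside 11.5%. No difference between the 50 genes and these lists was tested.

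Regulators that act in particular cell types had the largest differences. ESRP1, which sets epithelial exons, was at 17.7, 18.4 and 24.0 CPM in MC-F7 and 4.86, 4.40 and 3.91 CPM in MT-F7. It fell by 2.19 on the log2 scale (SE 0.198, adjusted p = 7.91e-06), the largest difference of all the splicing genes listed. CELF4, a regulator best known from neurons, was at 3.18, 5.39 and 4.72 CPM in MC-F7 and 1.83, 1.58 and 1.10 CPM in MT-F7 and fell by 1.55 (SE 0.311, adjusted p = 0.0033). RBFOX2, which enhances or represses exons according to where it binds, was at 19.2, 18.0 and 16.4 CPM and then 31.6, 35.9 and 27.6 CPM and rose by 0.83 (SE 0.163, adjusted p = 0.0029). RBM24, known from muscle, was at 0.973, 1.66 and 1.08 CPM and then 2.91, 3.17 and 1.91 CPM and rose by 1.10 (SE 0.348, adjusted p = 0.0366), a call lost without MC-F7 replicate 1 or 3 or MT-F7 replicate 1 or 2. RBM47 fell by 0.84 (adjusted p = 0.0137), a call lost without MC-F7 replicate 1 and on the TPM scale. In all, 2 of the 15 tested genes of this list were higher and 3 lower, which is 33.3% beside the background of 23.2%.

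In the U4/U6.U5 tri-snRNP, the particle that carries the catalytic RNAs to the spliceosome, 5 of 19 genes were lower and none higher. This is 26.3% beside the background of 23.2% (11.9% higher and 11.3% lower). Of the 19 genes, 15 had a log2 fold change below 0. The 5 called genes included PRPF3, PRPF4 and PPIH of the U4/U6 part. The others were SART1, which is needed to bring the tri-snRNP in, and SNRNP200, the helicase that unwinds U4 from U6. PRPF3 was at 158, 181 and 153 CPM in MC-F7 and 114, 100 and 89.5 CPM in MT-F7 and fell by 0.70 on the log2 scale (SE 0.153, adjusted p = 0.0057). PRPF4 fell by 0.62, PPIH by 0.52, SART1 by 0.49 and SNRNP200 by 0.48. The call was lost for PPIH without MC-F7 replicate 1 or 2 or MT-F7 replicate 1, for SART1 without replicate 1 or 2 of either group, and for SNRNP200 without MC-F7 replicate 2 or MT-F7 replicate 1 or 2. On log2(TPM + 1) limma called 1 gene of this list, PRPF4 (adjusted p = 0.0325), beside 18.4% of all tested genes. PRPF3 lost its call in that fit (adjusted p = 0.0522).

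Of the 16 genes for snRNP assembly, which load the Sm ring and bring the particle into the nucleus, 3 were lower and none higher. This is 18.8% beside the background of 23.2% (11.3% lower), and the median of the list was -0.22. SNUPN, the import adaptor snurportin, was at 30.6, 33.2 and 28.0 CPM in MC-F7 and 18.0, 17.1 and 14.4 CPM in MT-F7, without overlap, and fell by 0.89 (SE 0.163, adjusted p = 0.0018). GEMIN7 and GEMIN4 of the SMN complex fell by 0.68 and 0.46. The call of GEMIN4 was lost on the TPM scale and on leaving out any library except MT-F7 replicate 3. Of the 22 genes of the PRPF19 complex and the catalytic steps, CWC22 and XAB2 were lower, which is 9.09%. XAB2 fell by 0.46, a call lost without replicate 1 or 2 of either group and on the TPM scale. CWC22, which brings the exon junction complex to the spliceosome, was at 40.8, 46.8 and 49.3 CPM and then 29.8, 28.6 and 26.7 CPM and fell by 0.69 (SE 0.151, adjusted p = 0.0055).

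Among 17 hnRNP-type proteins under other symbols, DAZAP1 was lower, with 201, 191 and 191 CPM in MC-F7 and 106, 107 and 124 CPM in MT-F7 (log2 fold change -0.79, SE 0.144, adjusted p = 0.0017), and 13 had a log2 fold change above 0. TIA1, which helps U1 to bind weak 5′ splice sites, was at 20.0, 30.6 and 33.9 CPM and then 48.7, 43.4 and 53.5 CPM and was the only one of 5 genes of the U1 list called, with a rise of 0.79 (SE 0.196, adjusted p = 0.0114). Of the 14 genes for SR protein kinases and SR-related proteins, CLK4 was lower, by 0.54 on the log2 scale. Its call was lost without MC-F7 replicate 2 or 3 or MT-F7 replicate 1 or 2, and on the TPM scale. No gene was called by edgeR among 11 U2 partners, 7 LSm genes, 7 minor spliceosome genes or 7 exon junction complex genes. The background for each list is 23.2% of all tested genes. DESeq2 called 1 LSm gene, LSM5, and none of the others. An unadjusted p under 0.05 was found for LSM5 (log2 fold change -0.71, SE 0.258, adjusted p = 0.0638) and for 1 U2 partner, CHERP (-0.38, SE 0.150, adjusted p = 0.0864). Beside these lists the Sm core, U1, SF3A and SF3B genes had medians of -0.25, -0.13, -0.02 and -0.13, and the A/B and D, F/H and other hnRNP genes had medians of 0.15, 0.09 and 0.23. Under every alternative the hnRNP medians stayed above 0 and the Sm median below 0, whereas the medians of the U1, U2, SF3A, SF3B and SR genes changed sign under some.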

How the data were processed

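Per the labels and the study's methods, the authors mapped reads with HISAT2 2.0.5 onto the Ensembl genome of Bos taurus and made gene counts with featureCounts 1.5.0-p3; the genome build and the strand setting are not given in the sources used here. They deposited raw counts by Entrez identifier. The authors also deposited TPM values of 21653 lines, of which 159 identifiers were repeated and 21357 genes were used. The ratio of TPM to counts was equal in all libraries, within a tolerance of 0.001, for 9681 of 9682 genes with at least 50 counts, so TPM served as counts per gene length.

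Members were matched by symbol, and the same 50 were in both tables. Members and lists were chosen with earlier results of these data known. Counts were filtered by filterByExpr (minimum count 10, minimum total 15), normalised by TMM (factors 0.971 to 1.04) and tested, two-sided, with edgeR 4.0.16 in R 4.3.3 without a block. SEs are the absolute log2 fold change over the root of F. Alternatives were RLE factors, library size only, DESeq2 1.42.0, other filters, a replicate block, each library left out, removal of mitochondrial genes, limma 3.58.1 on log2(TPM + 1) and log2(TPM + 0.1), and limits of 1 and 1.5 on the absolute log2 fold change. Values in every library are given for called genes and for the gene of lowest p in each role without a call, and among other splicing genes for those of lowest p (6 at most in each direction). Further genes were named after their values were seen. With 3 libraries against 3, an exact permutation test of a single value cannot go below 0.1, so none is given. Overlapping genes come from RefSeq names (ARS-UCD2.0).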

Additional observations from a re-analysis of the deposited data

How the results depend on the processing

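With RLE factors, library size only, other count filters or the mitochondrial genes removed, the same 6 splicing factor genes were called, and DESeq2 added SF3B4. The 3 genes called higher became 5 with limma on log2(TPM + 0.1) or log2(TPM + 1), and the 3 called lower became 1 on both scales and on rescaled TPM. The other splicing genes called lower went from 15 to 8 on log2(TPM + 0.1) and 7 on log2(TPM + 1), beside 6.38% and 6.25% of all tested genes. Those called higher went from 3 to 5 on log2(TPM + 1), beside 12.2%. Leaving out each library in turn gave 1 to 4 splicing factor genes higher and 1 to 4 lower (14.5% to 23.4% of all tested genes were called in these fits), 2 to 6 other genes higher and 9 to 16 lower, and a median log2 fold change of the 50 genes from -0.075 to 0.093. That median was 0.15 and 0.14 on deposited TPM and 0.10 on rescaled TPM. Leaving out replicate 3 of both groups was an alternative chosen after seeing the data, like the rescaled TPM. Then 7 splicing factor genes were higher and 5 lower, and 8 and 23 other genes, beside 16.8% and 15.7% of all tested genes. With an absolute log2 fold change over 1 and an unadjusted p, 0 splicing factor genes were called in either direction. There were 1 other gene higher and 2 lower, beside 6.99% and 6.04% of all tested genes. Over 1.5 there were again 0 and 0, and 0 and 2 others, beside 3.49% and 3.09%. SNRPA1, not called in any fit, changed sign to 0.013 with limma on both deposited TPM scales and ranged from -0.19 to 0.0043 with each library left out, where it was above 0 without MT-F7 replicate 3. The replicate block gave 5 splicing factor genes higher (HNRNPR and SF3B5 added) and 4 lower (SF3B4 added), 7 and 26 other genes, and 36% of all tested genes. Deviations of libraries with the same number correlated with r = 0.167, 0.0707 and 0.505 across genes, and not every library correlated best with its own number, so the numbers were not taken as pairing. The causes of these differences were not tested. Depth limits the lowest genes most, with RBM24 near 1 CPM in MC-F7.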
